A study of Mus musculus with 2 samples.

Results

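The genes described here encode the enzymes that carry glucose carbon through glycolysis, into the pentose phosphate pathway and, by way of pyruvate, into the tricarboxylic acid (TCA) cycle. They were chosen by symbol, as a fixed list of 48 pathway genes without the phosphofructokinases, and all 48 were among the 14694 genes of the deposited count table. The list holds 14 enzymes of glycolysis, 13 genes of pyruvate entry and its control, and 7 enzymes of the pentose phosphate pathway. The other 14 are grouped here with the TCA cycle and include the cytosolic enzymes Mdh1 and Idh1. RNA labelled as coming from mouse lung fibroblasts was sequenced after removal of ribosomal RNA, in 1 library labelled IR and 1 labelled NC. Both titles carry the number 4. The labels give no treatment, dose, time, strain or animal for either library and do not spell out the group names, so every direction below sets one labelled library (IR) against the other (NC). The series as a whole concerns lung fibrosis after radiation, rosmarinic acid and the glycolytic regulator PFKFB3. The protocol text describes spinning and filtering of culture supernatants to collect vesicles, and whether cells or vesicles gave this RNA is not stated. Each group has 1 library, so no difference here has a replicate check and no test between conditions is possible.

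Glycolysis splits glucose into pyruvate in the cytosol, and lactate dehydrogenase turns pyruvate into lactate. The pyruvate dehydrogenase complex instead feeds pyruvate carbon into the mitochondrial TCA cycle, and its kinases switch that complex off while its phosphatases switch it on. The pentose phosphate pathway has an oxidative branch, which makes NADPH, and a reversible branch, which exchanges sugar phosphates with glycolysis. Fibroblasts that turn into myofibroblasts are known to raise glycolysis, and PFKFB3 is one of the enzymes that drive it.

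Counted reads came to 35219511 for IR and 36084512 for NC. Levels are given as CPM, read counts scaled to a common depth with TMM, and as RPKM, which also divides by exon length. RPKM is used where genes are compared with each other. Exon length is the union of all annotated exons of a gene and can exceed that of the transcripts present. Comparisons between genes by RPKM or per kilobase depend on that choice. Differences are log2 ratios of IR over NC with a 95% interval that covers counting error only. The table listed 8 of 11 fibroblast markers, with totals of 4273 (IR) and 5352 (NC) CPM, and they moved in opposite directions. Fn1 (49419 reads in IR, 90065 in NC), Col1a2 (18761 and 32428) and Col1a1 (273 and 688) were lower in IR, as were Col3a1, Pdgfra and Pdgfrb. Vim (76565 and 66290) and the scarce Dcn (30 and 7) were higher in IR. Epithelial markers, 3 of 8 listed, summed to 0.946 and 0.494 CPM, with Sftpc at 0 and 2 reads. Endothelial markers summed to 2.67 and 1.65 CPM and erythroid markers to 0.287 and 0.275 CPM. The macrophage and leukocyte markers, 2 of 4 listed, came to 83.3 (IR) and 60.1 (NC) CPM, nearly all from Cd68, while the leukocyte surface protein Ptprc had 4 and 0 reads. The part of these marker differences in the results below was not tested. In bulk RNA, fewer cells of a type and less RNA per cell cannot be told apart.

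No member was 2-fold different between the libraries. Of the 48 genes 47 had at least 50 reads over both libraries and were compared. Their median log2 ratio was -0.0017 (95% order-statistic interval -0.10 to 0.096), against -0.0069 over all 10921 genes compared. That interval comes from the spread of ratios over the members, taken as independent. It is not an error of the difference between IR and NC. No member was at least 1.5-fold higher in IR, and Fh1 and Rpe were at least 1.5-fold lower. The same rule called 6.09% of all compared genes higher and 6.90% lower at 1.5-fold, and 1.60% higher and 1.82% lower at 2-fold. The member ratios were also spread less widely than those of all compared genes, with a median absolute deviation of 0.22 against 0.34. Among genes with at least 1000 reads, where counting noise adds little, it was 0.24 over 41 members and 0.28 over all 6463 genes. These are descriptions, since no test of the difference in spread was made.

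With TMM scaling, small differences nevertheless passed counting error at this depth. For 16 members the whole interval was above equality, for 17 it was below, and for 14 it included equality. Over all compared genes the interval lay above for 31.2% and below for 32.4%, and over those with at least 1000 reads for 37.2% and 37.1%. In that deeper class it lay above for 16 and below for 16 of the 41 members. The interval says only that the 2 libraries differed by more than read counting does. It does not cover the choice of scaling. Total counts moved the median of all compared genes by -0.03 and upper-quartile scaling by 0.03 (log2), so the smallest differences depend on that choice.

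**Figure D1:**
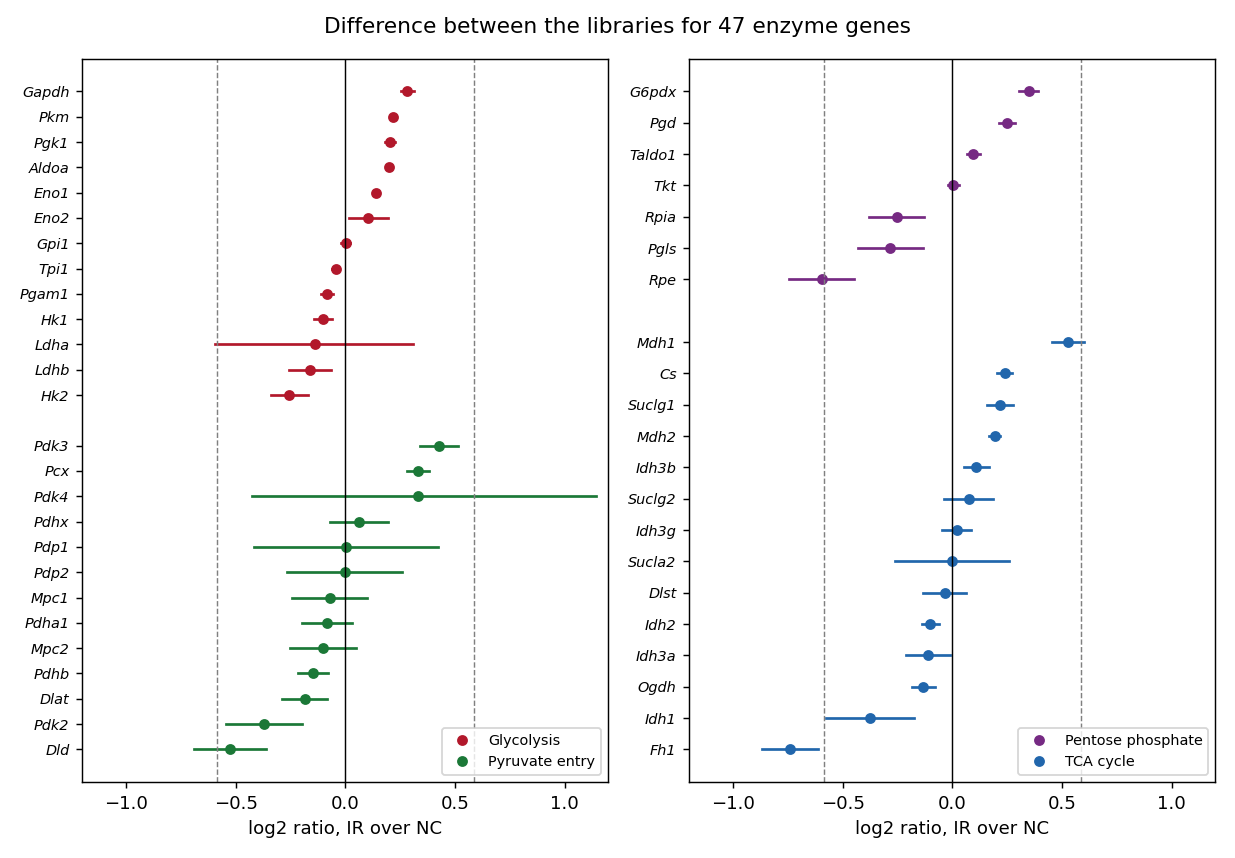
Log2 ratio of IR over NC (horizontal axis) for the 47 compared members, by role, with lines for the 95% counting interval and dashed lines at 1.5-fold. Fh1, at -0.74, lies farthest to the left and Mdh1, at 0.53, farthest to the right, and the other ratios lie between them.

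The genes at the ends of this range were Mdh1 and Pdk3, the 2 highest, and Rpe and Fh1, the 2 lowest. Their promoter sequences are shown to give the genomic context of the 4 genes the results turn on. They are from RefSeq on GRCm38.p6, run 5′ to 3′ on the strand of the gene, and reach from 250 bases before to 50 bases after the annotated start. Mdh1 lies on the minus strand, with its promoter at chr11:21571885-21572184. Pdk3 is also on the minus strand, at chrX:93832101-93832400. Rpe is on the plus strand, at chr1:66700581-66700880, and Fh1 on the minus strand, at chr1:175625586-175625885. Capitals mark matches, on either strand, to ACGTG and GCGTG (the core letters of hypoxia response elements), CCAAT (the CCAAT box) and GGGCGG (the GC box), and matches to different motifs or strands may overlap.
Mdh1: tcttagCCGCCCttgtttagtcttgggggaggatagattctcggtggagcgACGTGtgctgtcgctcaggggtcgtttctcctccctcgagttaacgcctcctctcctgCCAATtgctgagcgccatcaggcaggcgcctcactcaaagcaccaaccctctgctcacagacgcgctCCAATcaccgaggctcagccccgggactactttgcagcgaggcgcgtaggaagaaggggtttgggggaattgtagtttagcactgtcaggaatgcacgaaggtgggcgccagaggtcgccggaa
Pdk3: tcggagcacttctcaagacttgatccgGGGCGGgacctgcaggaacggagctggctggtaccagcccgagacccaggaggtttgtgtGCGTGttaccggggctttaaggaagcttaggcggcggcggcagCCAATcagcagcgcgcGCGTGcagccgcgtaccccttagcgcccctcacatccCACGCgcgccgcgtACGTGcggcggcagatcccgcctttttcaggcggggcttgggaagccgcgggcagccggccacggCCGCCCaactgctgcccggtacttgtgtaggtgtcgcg
Rpe: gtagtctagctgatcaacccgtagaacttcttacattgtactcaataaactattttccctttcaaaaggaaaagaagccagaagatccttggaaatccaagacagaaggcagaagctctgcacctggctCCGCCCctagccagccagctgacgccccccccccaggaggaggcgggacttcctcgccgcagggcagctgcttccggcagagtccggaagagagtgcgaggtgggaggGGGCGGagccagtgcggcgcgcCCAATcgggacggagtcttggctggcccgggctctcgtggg
Fh1: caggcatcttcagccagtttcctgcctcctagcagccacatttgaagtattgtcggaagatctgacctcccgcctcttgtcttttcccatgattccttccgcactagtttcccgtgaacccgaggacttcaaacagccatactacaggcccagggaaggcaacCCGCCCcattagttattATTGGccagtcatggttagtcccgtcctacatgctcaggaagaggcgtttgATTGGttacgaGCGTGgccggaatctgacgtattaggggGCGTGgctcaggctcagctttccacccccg

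These letters are common in promoters and do not mark bound sites. Promoters in RefSeq were matched by symbol for 46 of the 48 members, with 64 promoters in all. ACGTG was present in a promoter of 18 of those 46 genes. By promoter, it was in 37.5% of the 64, in 23.9% of the 13700 promoters of genes in the count table and in 19.6% of all 32851 promoters. GCGTG was in 54.7% of the member promoters against 47.6% for the genes of the table, and in 32.4% of all. CCAAT was in 56.3% of them against 37.5% and 37.4%, and GGGCGG in 65.6% against 58.8% and 35.7%. The 17 compared members with ACGTG had a median log2 ratio of 0.02 and the 28 without it one of -0.02. For GCGTG the medians were -0.08 with a match (26 genes) and 0.0024 without (19 genes), for CCAAT 0.06 (27 genes) and -0.02 (18 genes), and for GGGCGG -0.0026 (34 genes) and 0.02 (11 genes). The antioxidant response element TGACNNNGC, not marked in capitals, was in 15.6% of member promoters, 14.1% of those of the table and 12.4% of all. Its medians were 0.0086 with a match (10 genes) and -0.0035 without (35 genes). Of the printed promoters Pdk3 held ACGTG 1 time and GCGTG 3 times, Mdh1 ACGTG 1 time, Fh1 GCGTG 2 times, and Rpe neither. Among them only Mdh1 held TGACNNNGC, on the opposite strand 5 to 13 bases after the annotated start.

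Glycolytic enzymes had the highest levels of the 4 groups, and their genes drew 1.997% of all reads in IR and 1.839% in NC (95% Clopper-Pearson intervals 1.993 to 2.002% and 1.835 to 1.843%). Pkm (pyruvate kinase, which makes pyruvate) had 271215 reads in IR and 243801 in NC. Per exon length it was the most abundant member, at 1555 RPKM in IR and 1338 RPKM in NC. Aldoa (aldolase, which splits the hexose bisphosphate into trioses) followed with 118609 and 108026 reads, or 1168 and 1019 RPKM. Eno1 (enolase) had 130719 and 123745 reads, or 697 and 632 RPKM. All 3 were slightly higher in IR, with log2 ratios of 0.22 for Pkm (interval 0.21 to 0.22), 0.20 for Aldoa (0.19 to 0.21) and 0.14 for Eno1 (0.13 to 0.15). When ratios were centred on exon length and GC content they were 0.30, 0.18 and 0.23, each outside its interval. Together these 3 genes supplied most of the difference in the group's sum. That sum was 20165 (IR) against 18216 (NC) CPM, a log2 ratio of 0.15 (interval 0.14 to 0.15). The other 11 glycolytic genes summed to 5244 against 5162 CPM (0.02, 0.01 to 0.03). An overlapping gene covers 15.3% of the exon bases of Pkm, and 26.0% of the Eno1 words recur in other genes.

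The other steps of glycolysis went either way by small amounts. Gapdh (which oxidises glyceraldehyde phosphate and yields NADH) had 18090 reads in IR and 15527 in NC, the highest log2 ratio of the group at 0.28 (interval 0.25 to 0.31). Its level of 125 and 103 RPKM stood below that of Tpi1, the isomerase just before it, at 687 and 708 RPKM. Exons of Gapdh share 25.1% of their 50-base words with 223 other annotated genes, and how reads matching several places were counted is not stated. Pgk1 (phosphoglycerate kinase, an ATP-making step) had 28640 and 25960 reads and a log2 ratio of 0.20 (0.18 to 0.23), with 53.9% of its words shared. Eno2, the enolase typical of neurons, had 2128 and 2067 reads (0.10, 0.02 to 0.19, and 0.17 with centring on exon length and GC content). Gpi1 (glucose phosphate isomerase) had 37488 and 39082 reads and a ratio of 0.0024 (-0.02 to 0.02), which became 0.13 with that centring. Tpi1, with 65974 and 70988 reads, had -0.04 (-0.06 to -0.03; -0.07 with total counts and -0.02 with upper-quartile scaling), and Pgam1 (phosphoglycerate mutase), with 18245 and 20183 reads, -0.08 (-0.11 to -0.05).

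The lowest ratios of the glycolytic group belonged to its first and last steps. Hk2, the inducible hexokinase that traps glucose in the cell, had 2141 reads in IR and 2668 in NC, or 61.4 and 73.2 CPM. This is a log2 ratio of -0.25 (interval -0.34 to -0.17), the lowest in glycolysis with TMM scaling, and -0.16 with centring on exon length and GC content. Hk1, the widely expressed hexokinase, had 8488 and 9517 reads and a ratio of -0.10 (-0.15 to -0.06), which became 0.0041 with that centring. Ldhb, the lactate dehydrogenase chain of heart, had 1664 and 1944 reads (-0.16, -0.26 to -0.07). Ldha, the chain that prevails in muscle and in glycolytic cells, had only 79 reads in IR and 91 in NC (-0.14, -0.60 to 0.31). Per exon length Ldha stood at 0.684 and 0.755 RPKM and Ldhb at 30.4 and 34.0 RPKM, so the table lists far less Ldha than Ldhb in both libraries. Ldha shares 9.26% of its words with 328 other annotated genes and overlaps no exon of another gene in GENCODE M21. Whether its low count comes from the RNA or from the counting was not tested. Aldoc, the aldolase of brain, had 14 and 9 reads and was not compared. Over the group's 13 compared members the median was 0.0024, with 7 ratios above 1 and 6 below.

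**Figure D2:**
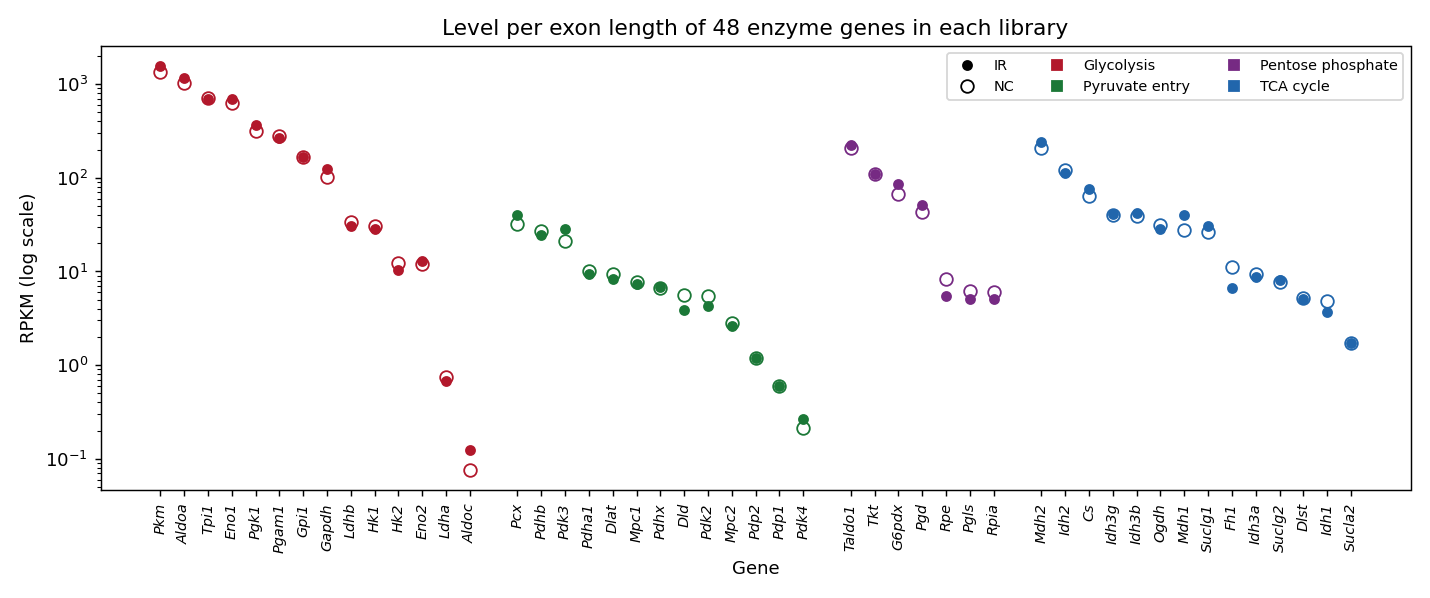
RPKM (vertical log axis) of all 48 members in the IR library (filled circles) and the NC library (open circles), by role and in order of the NC level. Levels ran from 1555 RPKM for Pkm in IR to 0.0757 RPKM for Aldoc in NC, and the libraries differed far less than the genes did.

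Pyruvate entry held the clearest contrast between isozymes, in the kinases that switch off pyruvate dehydrogenase. Pdk3 had 2532 reads in IR and 1966 in NC, or 72.6 and 54.0 CPM, and was higher in IR (log2 ratio 0.43, interval 0.34 to 0.51). Pdk2 had 472 and 637 reads, or 13.5 and 17.5 CPM, and was lower in IR (-0.37, -0.54 to -0.20). The Pdk2 share of the reads of this pair was thus 15.7% in IR (95% Clopper-Pearson interval 14.4 to 17.1%) and 24.5% in NC (22.8 to 26.2%). This share needs no scaling between libraries, and the log2 change in the pair's ratio was -0.80 (counting interval -0.99 to -0.60), the largest of the 12 pairs examined. Pdk4, the kinase induced by fasting, had 33 and 27 reads (0.33, -0.43 to 1.14) and was too scarce to place. The remaining kinase of this family, Pdk1, is in the wider pathway list and not among the members. It had 792 and 1171 reads, or 22.7 and 32.1 CPM, and like Pdk2 was lower in IR (-0.50, -0.63 to -0.37). Summed over all 4 kinases the level was 109.8 (IR) against 104.3 (NC) CPM (0.07, 0.01 to 0.14), so the sum differed far less than its parts. The phosphatases that oppose them differed within counting error, with 95 and 99 reads for Pdp1 (0.0029, -0.42 to 0.42) and 235 and 246 for Pdp2 (-0.0035, -0.27 to 0.26). These intervals are wide, and that of Pdp1 would hold a difference as large as that of Pdk2.

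The 5 subunit genes of the pyruvate dehydrogenase complex had a summed level of 212 (IR) against 236 (NC) CPM, a log2 ratio of -0.15 (interval -0.19 to -0.10). Dld, the dihydrolipoamide dehydrogenase that this complex shares with the oxoglutarate dehydrogenase complex, had 497 reads in IR and 747 in NC. Its log2 ratio of -0.52 (-0.69 to -0.36) was the lowest of the pyruvate genes. Dlat, the acetyltransferase core, had 1424 and 1692 reads (-0.19, -0.29 to -0.08), and Pdhb, the beta chain of the decarboxylase, 3307 and 3826 reads (-0.15, -0.22 to -0.08). Their partners differed within counting error, Pdha1 (the alpha chain) with 1237 and 1369 reads (-0.08, -0.20 to 0.03) and Pdhx (which anchors the dehydrogenase) with 946 and 946 reads (0.06, -0.07 to 0.19). An overlapping gene, Map3k15, covers 16.1% of the Pdha1 exon bases. The pair Mpc1 and Mpc2, the carrier that takes pyruvate into mitochondria, had 535 and 587 reads (-0.07, -0.24 to 0.10) and 678 and 760 reads (-0.10, -0.25 to 0.05). Pcx, pyruvate carboxylase, which makes oxaloacetate from pyruvate, went the other way, with 6705 reads in IR and 5567 in NC. At a log2 ratio of 0.33 (0.28 to 0.38) it was second to Pdk3 in the group, and per exon length it was the most abundant pyruvate gene, at 40.4 and 32.2 RPKM. Of the 13 genes, the interval lay above 1 for 2, below for 4 and across for 7, with a median of -0.07. Over all compared genes it lay above for 31.2% and below for 32.4%.

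In the pentose phosphate pathway the 2 dehydrogenases that make NADPH were higher in IR, while the enzyme between them and both enzymes acting on ribulose phosphate were lower. G6pdx (glucose phosphate dehydrogenase, the entry step) had 9170 reads in IR and 7525 in NC, or 263 and 207 CPM. Pgd (phosphogluconate dehydrogenase) had 11658 and 10243 reads, or 334 and 281 CPM. Their log2 ratios were 0.35 (interval 0.30 to 0.39) and 0.25 (0.21 to 0.29). Pgls, the lactonase between these steps, had 661 and 840 reads (-0.28, -0.43 to -0.13). The group holds 3 such oxidative enzymes, and they did not move together.

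In the reversible branch Rpe (the epimerase that makes xylulose phosphate) had 599 reads in IR and 946 in NC, or 17.2 and 26.0 CPM. It was 1.51-fold lower in IR, a log2 ratio of -0.60 (-0.75 to -0.45). This is just past the 1.5-fold limit of 0.585 on the log2 scale, and the overlapping gene Kansl1l covers 17.9% of the Rpe exon bases. Rpia (the isomerase that makes ribose phosphate for nucleotides) had 945 and 1177 reads (-0.25, -0.38 to -0.13). Both genes were scarce beside the enzymes that follow them, with Rpe at 5.52 and 8.34 RPKM and Rpia at 5.05 and 6.03 RPKM. Taldo1 (transaldolase), at 223 and 208 RPKM, and Tkt (transketolase), at 109.7 and 109.3 RPKM, were the most abundant of the pathway. Tkt had 28136 and 29283 reads (0.0048, -0.02 to 0.03, and 0.15 with centring on exon length and GC content), and Taldo1, with 16864 and 16480 reads, had a ratio of 0.10 (0.065 to 0.13). The 7 enzymes had a median of 0.0048 and a median absolute deviation of 0.38, the widest of the 4 groups. Overlapping genes cover 13.6% of the exon bases of G6pdx and 20.6% of those of Pgls.

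The TCA group, which includes cytosolic enzymes, held both ends of the whole list. Fh1 (fumarate hydratase, which turns fumarate into malate) had 781 reads in IR and 1363 in NC, or 22.4 CPM (Poisson interval 20.8 to 24.0) and 37.4 CPM (35.5 to 39.5). It was 1.67-fold lower in IR, a log2 ratio of -0.74 (-0.87 to -0.61), and remained between -0.77 and -0.71 under every scaling, prior count, filter and centring tried. Mdh1, the cytosolic malate dehydrogenase of the malate-aspartate shuttle, had 3573 and 2592 reads, or 102 CPM (99.1 to 106) and 71.2 CPM (68.4 to 73.9). It was 1.44-fold higher in IR, at 0.53 (0.45 to 0.60). Fh1 and the cytosolic Mdh1, which both handle malate, therefore had opposite directions in these libraries. Of the Mdh1 words 0.234% recur in another gene, and of the Fh1 words 0%.

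Mdh2, the mitochondrial malate dehydrogenase, was the most abundant TCA gene per exon length, at 239 and 209 RPKM. It had 29735 reads in IR and 27159 in NC, a smaller excess than that of Mdh1 (0.19, 0.17 to 0.22). The Mdh1 share of the pair rose from 8.71% in NC (8.39 to 9.04%) to 10.7% in IR (10.4 to 11.1%), a log2 change in the pair's ratio of 0.33 (0.26 to 0.41). Cs (citrate synthase, the entry step) had 15333 and 13566 reads (0.24, 0.21 to 0.27). Suclg1, the alpha chain of succinyl-CoA ligase, had 4954 and 4448 reads (0.22, 0.16 to 0.28). Its 2 alternative beta chains differed within counting error, Suclg2 (the GTP form) with 1308 and 1297 reads (0.07, -0.04 to 0.19) and Sucla2 (the ATP form) with 242 and 253 (-0.0017, -0.26 to 0.26).

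The isocitrate dehydrogenase genes did not share a direction. Idh1, the cytosolic NADP-linked enzyme, had 361 reads in IR and 489 in NC, the second lowest ratio of the TCA group (-0.37, -0.58 to -0.18). Idh2, its mitochondrial counterpart, had 10170 and 11394 reads (-0.10, -0.14 to -0.06). The Idh1 share of this pair was 3.43% in IR (3.09 to 3.79%) and 4.12% in NC (3.77 to 4.49%), a log2 change of -0.27 (-0.48 to -0.07) in the ratio. The NAD-linked enzyme of the cycle is built from 3 kinds of chain. Its catalytic chain Idh3a had 1537 and 1733 reads (-0.11, -0.21 to -0.01), Idh3b 5011 and 4854 (0.11, 0.05 to 0.17, and 0.17 with centring on exon length and GC content) and Idh3g 3854 and 3972 (0.02, -0.05 to 0.08). Per exon length Idh3a, at 8.69 and 9.38 RPKM, stood well below Idh3b, at 42.0 and 38.9 RPKM, and Idh3g, at 40.9 and 40.4 RPKM. In the oxoglutarate dehydrogenase complex, Ogdh had 5455 and 6242 reads (-0.13, -0.18 to -0.08, and -0.05 with that centring) and its succinyltransferase Dlst 1681 and 1799 (-0.04, -0.13 to 0.06). The 14 TCA members had a median of 0.0086, with 7 ratios above 1 and 7 below.

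**Figure D3:**
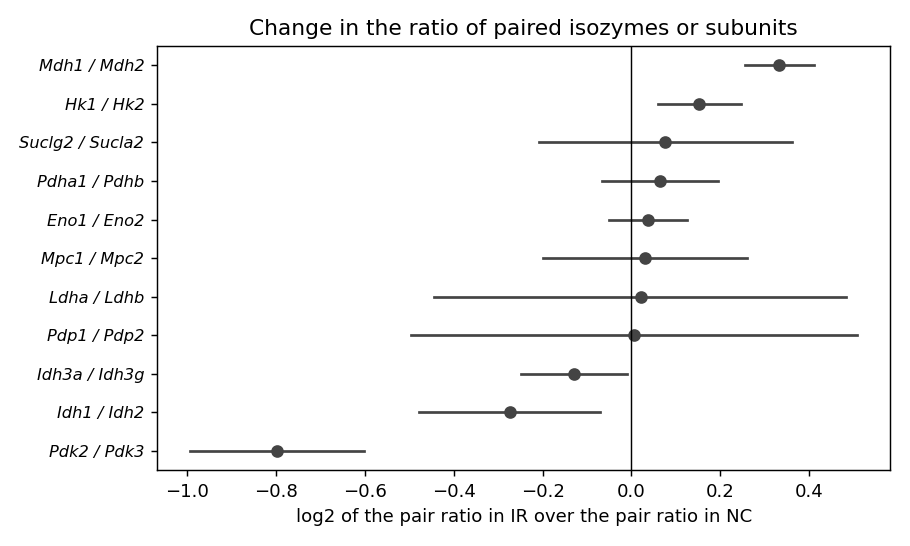
Log2 change between the libraries in the ratio of the first to the second gene of each pair (horizontal axis), with 95% exact conditional counting intervals, for 11 of the 12 pairs. Pdk2 over Pdk3 lies lowest at -0.80 and Mdh1 over Mdh2 highest at 0.33; Aldoa and Aldoc are not drawn because Aldoc had 14 and 9 reads.

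The 12 pairs were isozymes or alternative chains, except Mpc1 and Mpc2, Pdha1 and Pdhb, and Idh3a and Idh3g, which are different subunits of 1 complex. Hk1 made up 79.9% of the hexokinase pair in IR (79.1 to 80.6%) and 78.1% in NC (77.4 to 78.8%), a log2 change of 0.15 (0.06 to 0.25) in the ratio of Hk1 to Hk2. The interval of that change also excluded 0 for Pdk2 and Pdk3, Mdh1 and Mdh2, Idh1 and Idh2, and Idh3a and Idh3g (-0.13, -0.25 to -0.01). It included 0 for the other 7 pairs. Among these were Eno1 and Eno2, where Eno1 gave 98.4% of the reads in each library, and Ldha and Ldhb, where Ldha gave 4.53% in IR and 4.47% in NC.

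Across the members the direction of the difference went with the level. Of the 21 members with a mean of at least 100 CPM, 16 had a ratio above 1 (13 with scaling by total counts), with a median log2 ratio of 0.14. Of the 21 between 10 and 100 CPM only 5 did, with a median of -0.15, and these 5 were Mdh1, Pdk3, Eno2, Suclg2 and Pdhx. The 5 members under 10 CPM had a median of -0.0017. Over all compared genes the corresponding counts were 1183 of 2110, 2390 of 5065 and 1793 of 3746, with medians of 0.04, -0.02 and -0.03. Spearman's rho between log2 ratio and mean log2 CPM was 0.46 over the 47 members and 0.05 over all 10921 genes. The members share their 2 libraries and are not independent replicates, so this is a description without a test. With exon length rho was -0.01 over the members and -0.10 over all genes with a length.

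**Figure D4:**
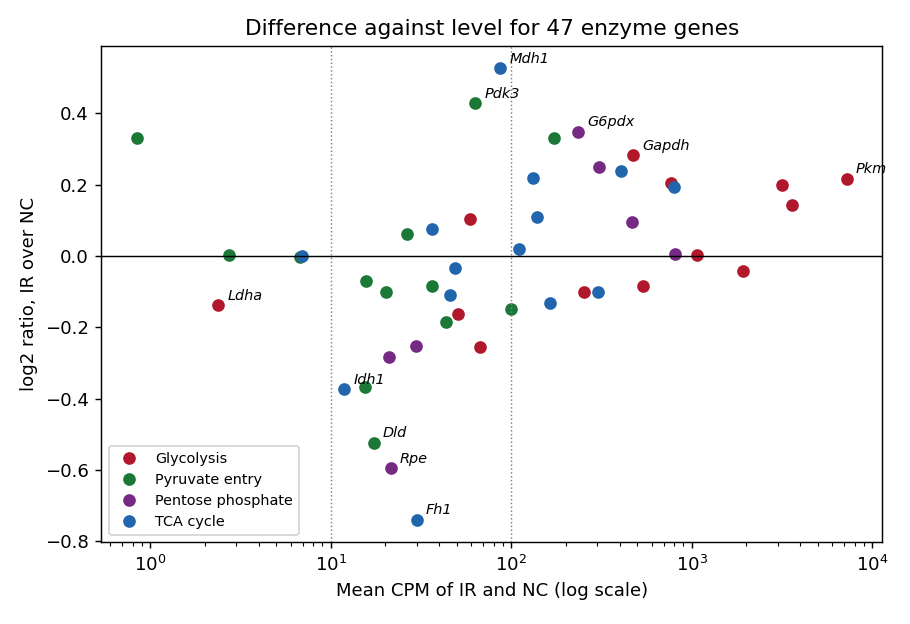
Log2 ratio of IR over NC (vertical axis) against the mean CPM of both libraries (horizontal log axis) for the 47 compared members, with dotted lines at 10 and 100 CPM. Between 10 and 100 CPM 5 of 21 members lie above 0, and from 100 CPM upward 16 of 21.

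A wider list of 52 genes of the same pathways, among them the phosphofructokinases, glucose and lactate transporters, aconitases and succinate dehydrogenase, showed no common direction either. Of these 42 were in the table and 37 were compared, with a median log2 ratio of -0.04. The interval lay above 1 for 11, below for 14 and across for 12, and 2 were at least 1.5-fold higher and 3 lower. Over all compared genes the interval lay above for 31.2% and below for 32.4%. At 1.5-fold 6.09% of all compared genes were higher and 6.90% lower. The highest was Ldhd, a mitochondrial D-lactate dehydrogenase with 142 reads in IR and 45 in NC (1.68, 1.23 to 2.24). Pfkfb1 followed with 53 and 35 reads (0.63, 0.02 to 1.32), then the lipoyl transferase Lipt1 with 135 and 100 (0.49, 0.11 to 0.88). Overlapping genes cover 42.2% of the exon bases of Ldhd and 12.8% of those of Lipt1. The lowest was Slc2a4, the insulin-responsive glucose transporter, with 14 and 45 reads (-1.50, -2.60 to -0.73). Next came the malic enzyme Me3 with 33 and 55 reads (-0.64, -1.34 to -0.03), and the sedoheptulokinase Shpk with 168 and 271 (-0.62, -0.91 to -0.34). Slc2a1, the main glucose transporter of most cells and named here, like Slc2a3, outside the rule, had 11894 and 14990 reads (-0.27, -0.31 to -0.24). Slc2a3, another glucose transporter, had 465 and 405 reads and the opposite direction (0.26, 0.07 to 0.46).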

How the data were processed

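The authors deposited raw read counts per gene, per the file headers, with 1 column per library and protein-coding genes in its rows. Per the submitters' processing notes, cutadapt 1.9.3, HISAT2, HTSeq 0.9.1 and edgeR were used with mm10. The annotation release, strand setting and treatment of multiply aligned reads are not given in the sources used here. The other 2 value columns were not used.

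Libraries were scaled with TMM (edgeR 4.0.16, R 4.3.3). Log2 ratios of CPM used a prior count of 2, for genes with at least 50 reads over both libraries. Intervals are Clopper-Pearson for ratios and shares, exact Poisson for CPM and exact conditional for pairs (scipy 1.17.1), at 95%. They cover counting error only and treat each read as independent. PCR copies are not independent molecules and would make these intervals too narrow. The intervals of medians instead come from the order of the gene ratios in a list and treat genes as independent. A gene was called 1.5-fold or 2-fold different when its ratio passed that fold and its interval excluded 1. No p-value was computed, because there is 1 library per group. Exon lengths, exon overlaps and shared 50-base words came from GENCODE M21 on GRCm38, matched by gene ID for all 48 members. The procedure was run on simulated counts with known changes. Those counts carried counting noise only, so the run says nothing on variation between libraries.

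Promoters were not matched for Pdp1 and Idh3a. Every member is named. Fuller values go to the 3 highest and 3 lowest ratios of each role, to members past 1.5-fold and to the pairs described. Members, roles, lists and rules were chosen with earlier results of these data known. Alternatives were other scalings (total counts, DESeq2 1.42.0 size factors, upper quartile), prior counts, filters, means for medians, centring on length and GC content, and leaving out genes with shared or overlapping sequence. The last left out listed genes with at least 50% shared words or at least 10% exon overlap, which were 8 members. Only 1 member reached 50% shared words, while 14 had at least 10%, so much shared sequence stayed in. The check of direction by level was added after seeing the data. One gene of the wider pathway list is not reported here.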

Additional observations from a re-analysis of the deposited data

How the results depend on the processing

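No member became 2-fold different, and none 1.5-fold higher, under any alternative tried. The count of members at least 1.5-fold lower fell from 2 to 1 with upper-quartile scaling and when genes with shared or overlapping sequence were left out. Fh1 was called in both, whereas Rpe came to -0.57 in the former and was itself left out in the latter. Centring on length and GC content moved 15 single members past their intervals and reversed Hk1, from -0.10 to 0.0041. Among the 15 it took Gpi1 from 0.0024 to 0.13, Tkt from 0.0048 to 0.15, Ogdh from -0.13 to -0.05, Hk2 from -0.25 to -0.16, Eno1 from 0.14 to 0.23 and Idh3b from 0.11 to 0.17. The others came to 0.30 for Pkm, 0.18 for Aldoa, 0.33 for Gapdh and -0.12 for Pgam1. G6pdx and Pcx came to 0.40 each, Pgd to 0.34, Cs to 0.27 and Mdh2 to 0.23. The cause was not tested. Total counts and upper-quartile scaling moved 8 members each, with Gpi1 at -0.03 and 0.03 and Tkt at -0.02 and 0.03. The median of all members stayed between -0.029 and 0.023, and the medians of the 4 roles stayed inside their own intervals, though values this near 0 changed sign. Those intervals are wide, so staying inside them says little. That of the pentose phosphate group, -0.60 to 0.35, runs from its lowest to its highest member. The glycolytic median ran from -0.06 without genes of shared or overlapping sequence to 0.13 with centring on length and GC content. With total counts, the members of at least 100 CPM with a ratio above 1 numbered 13 of 21. Without genes past the limits on shared words or overlap they numbered 12 of 17. Eno1 and Gapdh, with 26.0% and 25.1% of words shared, were under the limit and stayed in. Total counts moved the median of all compared genes by -0.03 and upper-quartile scaling by 0.03 (log2). Dividing reads by exon length changes shares and their differences between libraries, but not the log2 change in the ratio of a pair. Per kilobase, Eno1 made up 98.17% (IR) and 98.13% (NC) of its pair, Hk1 73.5% and 71.4%, Idh3a 17.5% and 18.9%, Ldha 2.20% and 2.17%, Mdh1 14.3% and 11.7%, Mpc1 73.6% and 73.2%, Pdk2 13.1% and 20.8%, and Suclg2 82.3% and 81.6%. Leaving out a library was not possible with 1 per group. No paired analysis was possible because each group has 1 library. Depth limits Aldoc, Pdk4, Ldha and Pdp1 most.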

Other observations

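Some genes of the wider pathway list were in the table with too few reads to compare. The hexokinase-like gene Hkdc1 had 5 reads in IR and 8 in NC. The muscle genes Pgam2 and Fbp2 had 2 and 0 reads, and 0 and 4 reads, and Pfkfb2, a heart relative of PFKFB3, had 9 and 14 reads. Other genes named for muscle were not scarce. Pfkm, the muscle phosphofructokinase, had 3944 and 4108 reads (0.0037, -0.06 to 0.07). Eno3, the enolase of muscle, stood at 5157 (IR) and 4603 (NC) reads, for a log2 ratio of 0.23 with an interval from 0.17 to 0.28. Its level of 85.0 and 72.7 RPKM stood above that of Eno2 and below that of Eno1. Succinate dehydrogenase links the TCA cycle to the respiratory chain. Its iron-sulphur subunit Sdhb had 15801 and 16517 reads (-0.0015, -0.03 to 0.03), while its flavoprotein Sdha had 3919 and 3311 reads (0.31, 0.24 to 0.37). Eno3, Pfkm, Sdhb and Sdha were chosen after their values were seen.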
